A study of Mus musculus with 8 samples.

Results

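The proteasome is the barrel-shaped protease complex that degrades ubiquitin-tagged proteins, and its subunit genes were followed here in whole kidneys of aged mice lacking CTRP1. They were taken as the protein-coding rows of the deposited table whose symbol began with Psm, a letter from a to g and a number, without the interferon-inducible Psmb8, Psmb9 and Psmb10. This gave 46 genes of the 23386 in the table, and 45 of them passed the filter on low values. One of these, Psmc3ip, matches by symbol only: it encodes a partner of Psmc3 that acts in meiotic recombination and is no subunit. Kidneys came from 4 Ctrp1-/- mice (KO) and 4 wild-type littermates (WT), labelled as biological replicates, all of 49 weeks and of strain C57BL/6J. Each left kidney gave 1 library of polyadenylated RNA. The KO allele lacks part of exon 4 of C1qtnf1, the gene of the secreted hormone-like protein CTRP1, in every cell. It was made in 129S5 stem cells and backcrossed for more than 6 generations, and 129S5 sequence left around the locus was not analysed here. Mice of both sexes were kept, and the labels give no sex for the single animals.

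The 26S proteasome is built from a 20S core and 19S caps. The core is a stack of rings, with outer rings of alpha subunits (Psma genes) that gate the entrance and inner rings of beta subunits (Psmb genes), of which Psmb5, Psmb6 and Psmb7 cut peptides. The 19S cap recognises ubiquitin, unfolds the substrate with a ring of ATPases (Psmc genes) and feeds it into the core, with non-ATPase subunits (Psmd genes) as scaffold, receptors and deubiquitinase. Dedicated chaperones (Psmg genes, Psmd5, Psmd9 and Psmd10) assemble the parts without staying in the finished complex. In the kidney, proximal tubule cells rely on this complex alongside the lysosome to turn over their proteins.

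The libraries held 15027400 to 19256378 counted reads, recovered from the FPKM. Values are scaled FPKM, fragments normalised for gene length and library depth and then divided by 1 factor per library. Levels compared between genes therefore depend on the deposited length of each gene. C1qtnf1 itself stood at 0.188, 0.575, 0.228 and 0.311 scaled FPKM in the KO kidneys and 3.85, 2.74, 3.18 and 4.75 in the WT kidneys (limma adjusted p = 0.000768). Markers of kidney segments were present throughout, with summed proximal tubule markers at 2758 to 3017 in KO and 3098 to 3477 in WT. The genotypes did not overlap in this sum, in which the most abundant markers weigh most. Of its 4 markers, 1 had a log2 fold change (KO over WT) above 0 and 3 below. At an unadjusted limma p under 0.05, 0 were higher and 2 lower, against 7.18% and 8.26% of all tested genes. The part of this sum in the results below was not tested. Collecting duct markers summed to 137 to 476 in KO, highest in replicate 3, and 161 to 221 in WT. Of these 3 markers, 2 had log2 fold changes above 0 and 1 below, the latter at an unadjusted limma p under 0.05. The 4 adipocyte markers summed to at most 1.07 in KO and 3.04 in WT. KO replicate 4 stood apart in haemoglobin and Alas2 transcripts, 3359 scaled FPKM against 1271 in the highest WT library. WT replicate 3 had a second principal component of -23.1, against -9.69 to 12.3 in the other libraries. In bulk kidney RNA, fewer cells of a type and less RNA per cell cannot be told apart.

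The subunits of the core complex were among the well expressed genes of the kidney. The 31 subunits of the 20S core and the 19S cap had a median level of 63.7 scaled FPKM over the 8 libraries, against 6.92 over all 14022 tested genes. Although each 20S subunit is present in equal number in the assembled particle, their transcripts differed in level 3.76-fold, from Psma3 (38.0), a subunit of the outer ring, to Psmb4 (143), a structural subunit of the inner ring. These levels depend on the deposited lengths, and the part of length in this range was not tested. Psma3, with a deposited length of 2846 bases, had 1661 to 2103 reads per KO library. Psma2, with 944 bases, had fewer reads (1252 to 1604) but a higher level. Among the 19S subunits the lowest level was that of Psmd11 (26.98), a scaffold of the lid, and the highest that of the ATPase Psmc1 (87.0), a 3.22-fold range. The catalytic Psmb5, Psmb6 and Psmb7 stood close together at 137, 119.9 and 105. Assembly chaperones were far lower, with levels of 1.32 for Psmg3 to 21.5 for Psmg1. Psma8, the testis form of an outer ring subunit, had 2 to 6 reads per KO library and 1 to 9 per WT library (18 and 22 reads in all), and was the member that did not pass the filter.

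**Figure D1:**
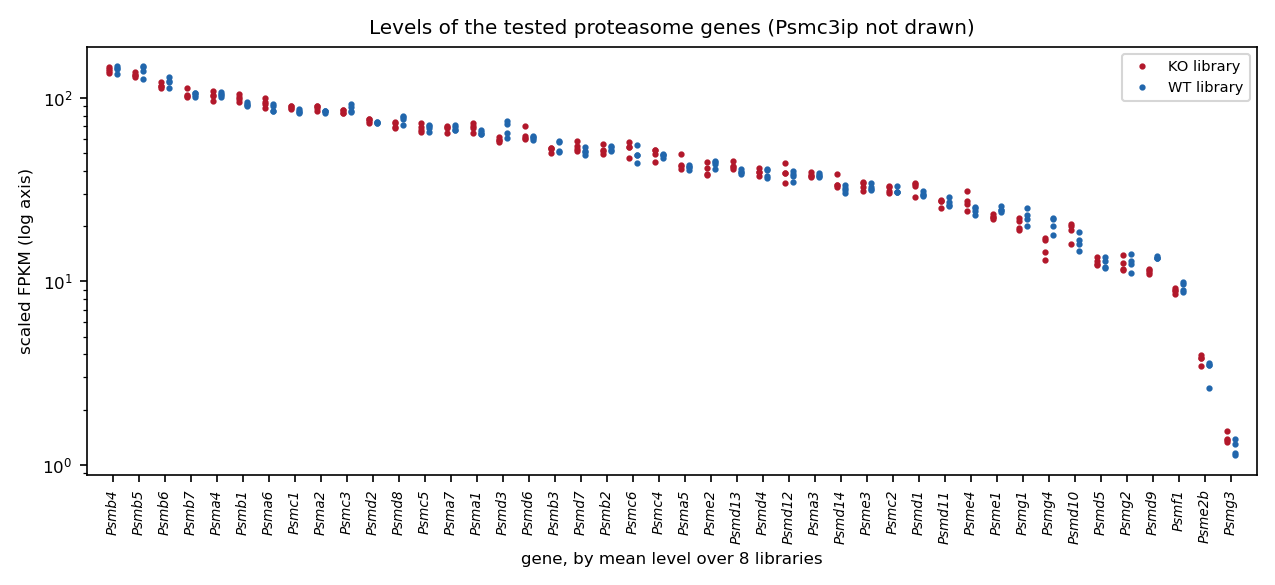
Scaled FPKM (vertical axis, logarithmic) of 44 tested proteasome genes in each kidney library, ordered by mean level; red points are KO libraries and blue points WT libraries. Levels run from 143 for Psmb4 to 1.32 for Psmg3, and the points of the genotypes overlap for most genes.

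The members varied little from animal to animal. The coefficient of variation over the 8 libraries had a median of 5.40% for the 45 tested members and 10.3% for all tested genes. It was 7.32% for the 1726 genes with a mean level between the quartiles of the members (25.9 to 74.0 scaled FPKM). The members themselves span a wider range, 1.32 to 143, so the sets are not fully matched in level. Psmd2, a ubiquitin-binding scaffold of the 19S cap, was steadiest at 1.97%, and Psmc3ip varied most among those tested, at 20.9%. Summed over their 14 genes, the 20S subunits measured 1170.2 to 1264 in the KO libraries and 1173 to 1218 in the WT libraries, and the 17 subunits of the 19S cap measured 888 to 955 in the KO libraries and 890.1 to 919 in the WT libraries. The ratio of the 19S sum to the 20S sum was 0.747 to 0.772 in the KO libraries and 0.748 to 0.759 in the WT libraries, so both sums and their ratio overlapped between the genotypes.

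Promoter sequences are shown because these genes are known to be driven together by a shared regulator. When the proteasome falls short, the membrane-bound transcription factor Nfe2l1 is released and binds antioxidant response elements in their promoters. RefSeq promoters (GRCm38.p6, the assembly also called mm10, 250 bases before to 50 after a RefSeq gene start) were found for 38 of the 45 tested members, and both strands were searched. Some genes had more than 1 start, and a match at any of them was counted. In Psma6 the CCAAT and CTTCCGG matches lie at different starts. RefSeq starts can differ from the deposited ones, as for Psmd13 (deposited start 140881968). The core of that element, TGACNNNGC, was present in 6 of the 38 (15.8%), against 14.0% of all 27025 genes with a promoter and 17.1% of the 9951 tested ones. The members with a match were Psmb5, Psmb6, Psmc6, Psmd9, Psmd12 and Psme4. CCAAT, the site of the factor NF-Y, was present in 13 (34.2%), against 42.0% of tested genes. CTTCCGG, which holds the GGAA core of ETS factors on its other strand, was present in 15 (39.5%), against 9.93% of all genes and 19.2% of tested genes. A match is a description of the letters and was not tested as a binding site. The windows below show 3 members with the first motif close to the gene start and 4 with the last, with the match in capitals.
Psmb5, chr14:54618025-54618050, minus strand: tgaagttgTGACGTCGCggcgttgcc
Psmb6, chr11:70525340-70525365, plus strand: aaagagagTGACGGAGCgctttacga
Psmd9, chr5:123228151-123228176, plus strand: ctagccggTGACCCCGCccacttcca
Psmc1, chr12:100110165-100110190, plus strand: gtggatgcaCTTCCGGcggtggcgat
Psmd2, chr16:20651617-20651642, plus strand: cgcagggcgCTTCCGGtctggaggac
Psmd12, chr11:107479502-107479527, plus strand: agcgggcgaCTTCCGGtgcgagtgac
Psmd13, chr7:140882378-140882403, minus strand: gctcgctcaCTTCCGGcaccgcgggc
The median log2 fold change, KO over WT, was -0.0097 in members with TGACNNNGC and 0.023 in those without, and 0.047 with CTTCCGG and -0.0047 without.

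No proteasome gene passed the test between KO and WT kidneys. Of the 45 tested members, 0 reached a limma adjusted p under 0.05, where 0.0499% of all tested genes did (0.0285% higher in KO, 0.0214% lower), and with limma's voom on the recovered reads the count was 0 as well. Log2 fold changes, KO over WT and taken after adding 0.5 to each value, which shrinks those of low genes, ran from -0.41 for Psmg4 to 0.19 for Psmd10. Their median was 0.018, beside -0.0012 over all tested genes, with 27 members above 0 and 18 below. In 28 members the size was under 0.1, 62.2% of those tested, against 51.4% of all tested genes. For 37 of the 45, the 95% interval of the log2 fold change lay within 0.3 of 0 on both sides.

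The unadjusted limma p was under 0.05 for 7 members, 2 higher in KO (Psmb1 and Psmd13) and 5 lower (Psmd9, Psmg4, Psmc3ip, Psme1 and Psmd3). The share of 15.4% among all tested genes (7.18% higher, 8.26% lower) is close to the members' 15.6% (4.44% higher, 11.1% lower). The count was 4 without WT replicate 1 (8.89%), where 11.8% of all tested genes met this threshold, and 3 without WT replicate 2 (6.67%, against 10.8%), all of them lower in KO. It was 10 without WT replicate 3 (22.2%, against 21.8%). The KO and WT libraries did not overlap for 7 members (15.6%), 3 higher (Psma2, Psmc1 and Psmd13) and 4 lower (Psmd9, Psmg4, Psmc3ip and Psme1), where 8.62% of all tested genes did not overlap, 4.34% higher and 4.28% lower. The lowest adjusted p among the members was that of Psmd9, 0.116.

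**Figure D2:**
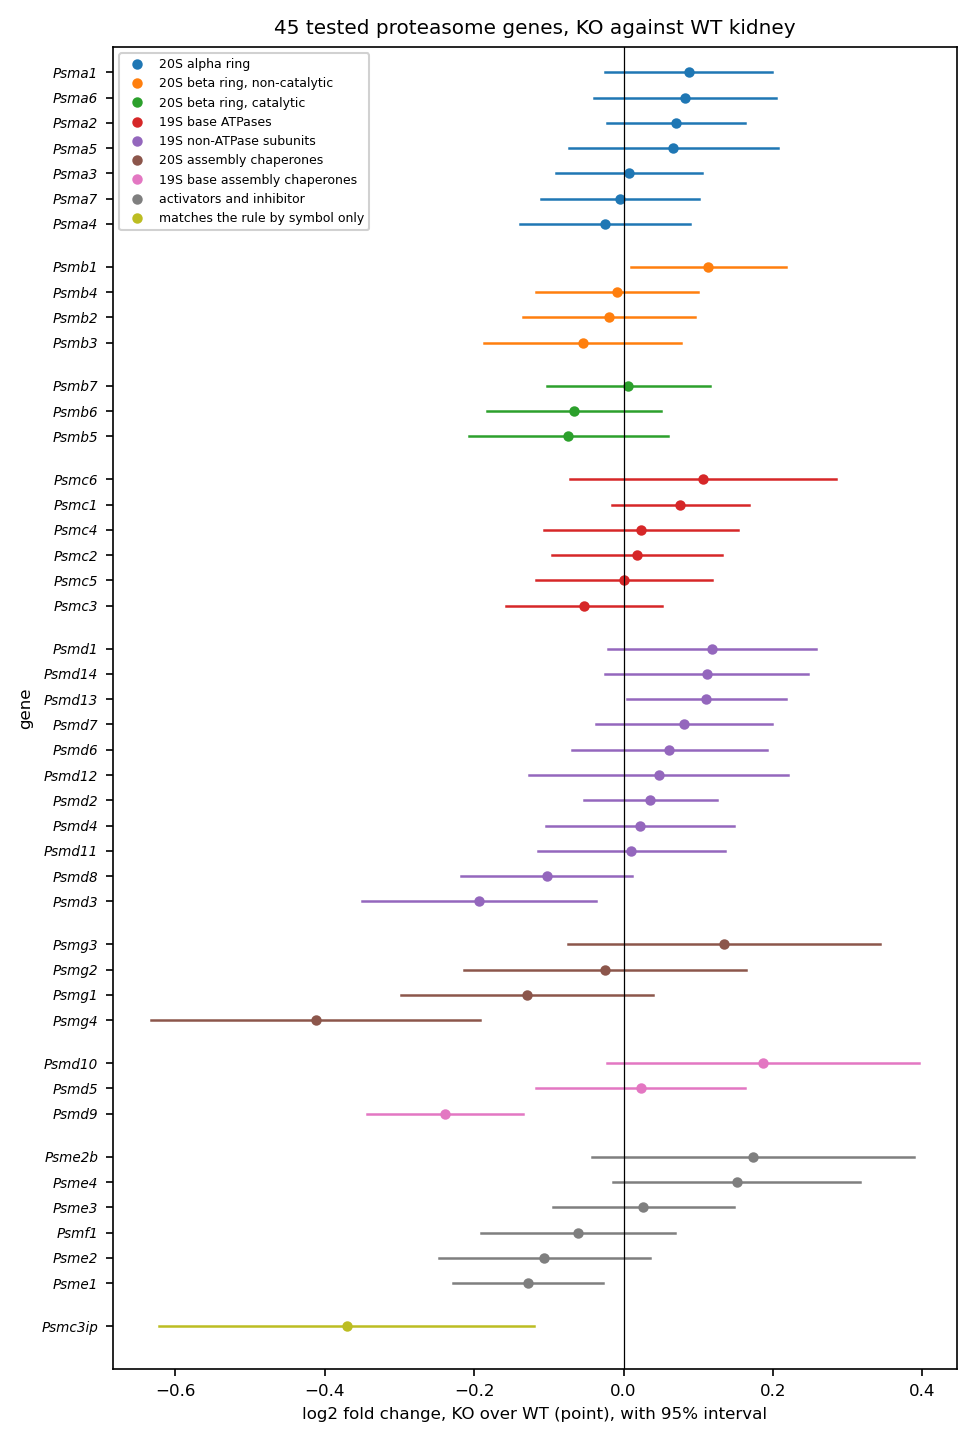
Fitted KO over WT log2 fold change (points, along the horizontal axis) with its 95% interval (lines) for the 45 tested genes, grouped and coloured by role. Points run from -0.41 for Psmg4 to 0.19 for Psmd10, and those of the 20S and 19S subunits from -0.19 for Psmd3 to 0.12 for Psmd1.

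Outer ring subunits of the 20S core, which form the gate, had a median log2 fold change of 0.067, with 5 of 7 above 0 and none past the test (0 of 7). With trends of GC content and length taken out of each library, the median was 0.020 and 4 of 7 were above 0. Psma1 measured 73.4, 64.6, 68.7 and 70.1 scaled FPKM in the KO kidneys, against 63.9, 64.0, 67.2 and 65.3 in the WT kidneys (log2 fold change 0.087, standard error 0.050, limma adjusted p = 0.422). KO replicate 2 lay among the WT libraries, so the groups overlapped, and the value with those trends taken out was 0.020. Psma2 measured 90.3, 85.3, 90.2 and 88.4 scaled FPKM in the KO kidneys, against 82.6, 84.6, 85.1 and 84.9 in the WT kidneys. The genotypes did not overlap in Psma2, but KO replicate 2 and WT replicate 3 lay next to each other (log2 fold change 0.070, standard error 0.041, limma adjusted p = 0.435), and with the trends taken out it was -0.031. Psma3, the lowest of the ring, averaged 38.1 ± 1.13 in KO and 37.9 ± 0.738 in WT (SD, n = 4 each), with an interval of -0.090 to 0.10 on the log2 scale, and a log2 fold change of 0.0072, or -0.069 with the trends taken out. Psma4, Psma5, Psma6 and Psma7 had log2 fold changes of -0.025, 0.067, 0.082 and -0.0047.

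Catalytic subunits of the inner rings overlapped between the genotypes, and their 95% intervals together ran from -0.21 to 0.12 on the log2 scale. Psmb5, which cuts after hydrophobic residues, measured 134, 138, 133 and 129 scaled FPKM in the KO kidneys, against 149, 148, 126 and 141 in the WT kidneys. The KO values lay inside the range of the WT values, whose lowest library was WT replicate 3 (log2 fold change -0.074, standard error 0.060, limma adjusted p = 0.572, interval -0.21 to 0.060). With GC and length trends taken out, the log2 fold change of Psmb5 was -0.019. Psmb6, which cuts after acidic residues, averaged 117 ± 3.50 in KO and 123 ± 6.85 in WT (SD, n = 4 each; log2 fold change -0.066, standard error 0.052, limma adjusted p = 0.562, interval -0.18 to 0.050). That of Psmb6 was -0.055 with those trends taken out. Psmb7, which cuts after basic residues, averaged 105 ± 5.32 in KO and 105 ± 2.44 in WT (SD, n = 4 each; log2 fold change 0.0064, interval -0.10 to 0.12; -0.082 with the trends taken out). Of the structural subunits, Psmb1 measured 105, 95.5, 99.0 and 101 scaled FPKM in the KO kidneys, against 92.7, 91.5, 95.6 and 90.2 in the WT kidneys. All KO values of Psmb1 but the lowest, KO replicate 2, stood above every WT value (log2 fold change 0.11, standard error 0.046, limma adjusted p = 0.287). Psmb3 and Psmb4 averaged 52.3 ± 1.49 in KO and 54.5 ± 4.08 in WT, and 142 ± 4.81 in KO and 143 ± 5.83 in WT (log2 fold changes -0.055 and -0.0091), and Psmb2 had a log2 fold change of -0.019.

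ATPases of the 19S base, the ring that pulls substrates apart, ranged in log2 fold change from -0.053 for Psmc3 to 0.11 for Psmc6, with a median of 0.021 and 0 of 6 past the test. Psmc1 measured 88.1, 90.8, 91.0 and 87.3 scaled FPKM in the KO kidneys, against 86.6, 84.9, 83.9 and 83.3 in the WT kidneys. Every KO library of Psmc1 stood above every WT library, by a small margin (log2 fold change 0.076, standard error 0.041, limma adjusted p = 0.392). Psmc6 measured 57.5, 47.2, 54.0 and 54.4 scaled FPKM in the KO kidneys, against 44.4, 48.7, 55.6 and 49.1 in the WT kidneys. The groups overlapped in Psmc6, with WT replicate 3 among the higher KO libraries (log2 fold change 0.11, standard error 0.080, limma adjusted p = 0.542), and its log2 fold change was 0.021 once those trends were taken out. Psmc5 had the log2 fold change nearest to 0 of all members, 0.00069 (interval -0.12 to 0.12).

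Of the 11 non-ATPase subunits of the cap, 9 had log2 fold changes above 0 and 2 below (Psmd3 and Psmd8), with a median of 0.047 and 0 past the test. Psmd3, a structural subunit of the lid, measured 57.9, 61.3, 59.1 and 58.8 scaled FPKM in the KO kidneys, against 75.3, 72.2, 60.3 and 64.5 in the WT kidneys. WT replicate 3 lay among the KO libraries and WT replicates 1 and 2 far above them (log2 fold change -0.19, standard error 0.070, limma adjusted p = 0.255). With GC and length trends taken out, the log2 fold change of Psmd3 was -0.13. Psmd13, another subunit of the lid, measured 45.4, 41.2, 42.5 and 42.1 scaled FPKM in the KO kidneys, against 38.4, 39.5, 41.0 and 39.5 in the WT kidneys. The groups did not overlap, though KO replicate 2 and WT replicate 3 were nearly equal (log2 fold change 0.11, standard error 0.048, limma adjusted p = 0.310). Its value was 0.16 with the trends taken out. Psmd11, whose level was the lowest of the cap, averaged 27.1 ± 1.27 in KO and 26.9 ± 1.42 in WT (SD, n = 4 each; log2 fold change 0.010; -0.071 with the trends taken out). The deubiquitinase Psmd14 and the scaffold Psmd1 had log2 fold changes of 0.11 and 0.12, and the ubiquitin receptors Psmd4 and Psmd2 had 0.022 and 0.036.

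The members of smallest p were assembly chaperones, although none of the 7 passed. Psmd9 (chromosome 5, 123228190 to 123250131, mm10), which holds ATPases of the 19S base during assembly, measured 11.0, 11.3, 11.7 and 11.5 scaled FPKM in the KO kidneys, against 13.4, 13.5, 13.7 and 13.4 in the WT kidneys. The groups were well apart in Psmd9, with the KO mean -15.8% away from WT and each group tight (log2 fold change -0.24, standard error 0.047, limma adjusted p = 0.116). Its adjusted p was 0.0700 to 0.349 over the alternatives tried, lowest without WT replicate 3, and its log2 fold change was -0.25 to -0.22 when each library was left out. Psmg4 (chromosome 13, 34162964 to 34178172), a chaperone of the outer ring, measured 13.0, 14.4, 16.7 and 17.2 scaled FPKM in the KO kidneys, against 22.0, 17.9, 20.2 and 21.9 in the WT kidneys. The KO mean was -25.2% away from WT with no overlap, on 106 to 161 reads per KO library and 176 to 196 per WT library (log2 fold change -0.41, standard error 0.10, limma adjusted p = 0.159).

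Among the other 5 chaperones, the genotypes overlapped in each, with 3 log2 fold changes above 0 and 2 below. Psmg3, which pairs with Psmg4, had a log2 fold change of 0.13 (interval -0.074 to 0.34) at 1.41 ± 0.0893 in KO and 1.24 ± 0.118 in WT, and the difference from Psmg4 was not tested. Psmg1 measured 22.2, 19.1, 19.5 and 21.2 scaled FPKM in the KO kidneys, against 25.1, 22.9, 21.9 and 20.1 in the WT kidneys. KO and WT overlapped in Psmg1, WT replicate 4 lying low (log2 fold change -0.13, standard error 0.075, limma adjusted p = 0.430), and its partner Psmg2 had a log2 fold change of -0.025. Psmd10, also called gankyrin, measured 20.5, 15.9, 20.1 and 19.05 scaled FPKM in the KO kidneys, against 16.8, 14.7, 18.6 and 16.0 in the WT kidneys. KO replicate 2 lay among the WT libraries and WT replicate 3 among the KO libraries (log2 fold change 0.19, standard error 0.093, limma adjusted p = 0.365). Psmd5 averaged 12.8 ± 0.635 in KO and 12.6 ± 0.848 in WT (log2 fold change 0.023; -0.030 with the trends taken out). Summed over the 7 chaperones, levels were 86.0 to 97.2 in the KO libraries and 93.1 to 104 in the WT libraries.

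Psme1 and Psme2 encode the interferon-inducible PA28 activator, which opens the 20S gate. Psme1 measured 22.5, 22.0, 22.5 and 23.3 scaled FPKM in the KO kidneys, against 24.6, 25.6, 24.0 and 24.5 in the WT kidneys. The groups did not overlap (log2 fold change -0.13, standard error 0.045, limma adjusted p = 0.244), and the value for Psme1, whose transcript has a GC content of 56.2%, was -0.052 with those trends taken out. Psme2 averaged 40.7 ± 3.21 in KO and 43.8 ± 1.92 in WT (SD, n = 4 each; log2 fold change -0.11, interval -0.25 to 0.035). Psme4, the nuclear activator PA200, measured 31.1, 26.4, 24.3 and 27.3 scaled FPKM in the KO kidneys, against 24.2, 23.0, 25.5 and 25.1 in the WT kidneys. The groups overlapped, and KO replicate 1 stood above the rest (log2 fold change 0.15, standard error 0.074, limma adjusted p = 0.354). Without KO replicate 1 the log2 fold change of Psme4 was 0.088, and with the trends taken out it was 0.058. Psme3, another nuclear activator, and Psmf1, an inhibitor of the 20S core, had log2 fold changes of 0.026 and -0.061. Psme2b is a further copy of Psme2, so its reads can be shared and its value (0.17) is uncertain.

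Psmc3ip, the gene that is no subunit, measured 2.06, 2.25, 1.74 and 2.34 scaled FPKM in the KO kidneys, against 3.32, 2.75, 2.37 and 3.03 in the WT kidneys. The highest KO and the lowest WT library were nearly equal, and each library held at most 58 reads of it in KO and 68 in WT (log2 fold change -0.37, standard error 0.11, limma adjusted p = 0.205).

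**Figure D3:**
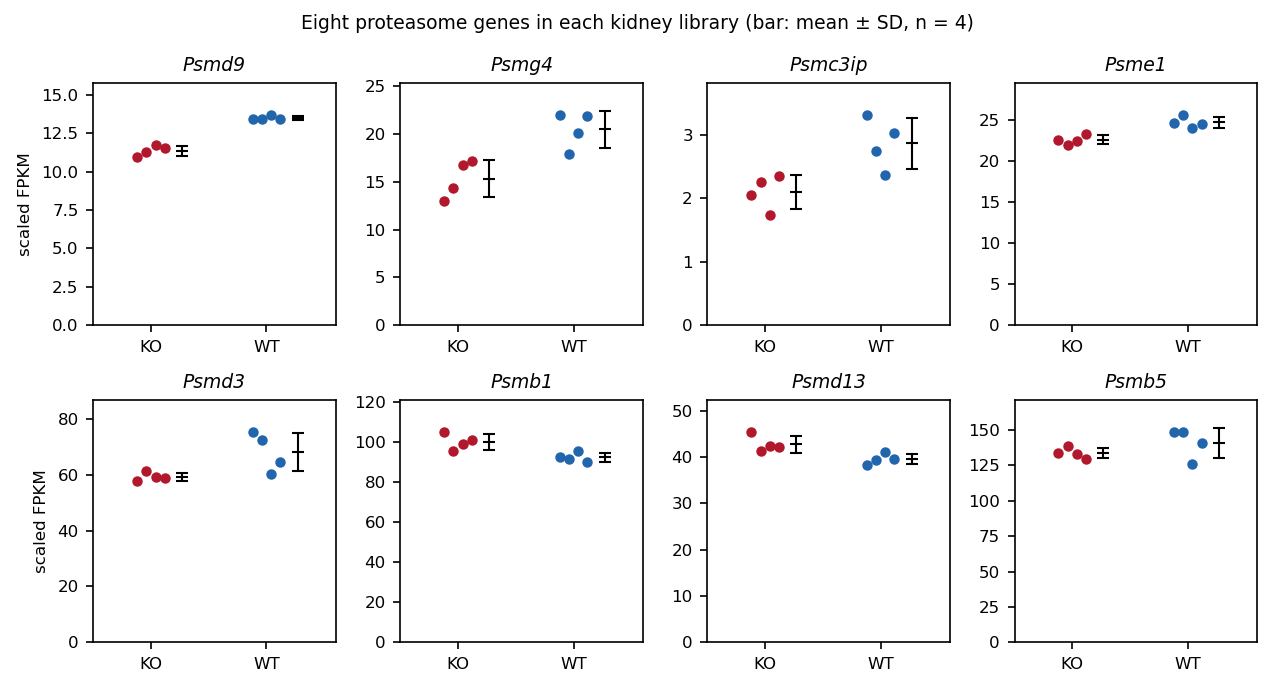
Scaled FPKM (vertical axes, linear from 0) in each KO and WT kidney library of 8 members, of which Psmc3ip is no proteasome subunit. Each point is a library, with mean ± SD (n = 4) drawn at its side. Psmd9, Psmg4, Psmc3ip and Psme1 lie lower in every KO library than in any WT library and Psmd13 higher, while Psmd3, Psmb1 and Psmb5 overlap.

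The inducible catalytic subunits, which replace the constitutive ones when interferon builds the immunoproteasome, were measured for comparison. Psmb10, the counterpart of Psmb7, measured 10.7, 11.1, 12.3 and 10.3 scaled FPKM in the KO kidneys, against 13.1, 14.2, 12.7 and 13.1 in the WT kidneys. The groups did not overlap in Psmb10 (log2 fold change -0.25, standard error 0.066, limma adjusted p = 0.174). Psmb8 and Psmb9, the counterparts of Psmb5 and Psmb6, overlapped, with log2 fold changes of -0.31 and -0.24 (limma adjusted p of 0.260 and 0.286). The 3 genes, all lower in KO, had an unadjusted limma p under 0.05, and 0 passed the test. Of all tested genes, 8.26% were lower in KO at this unadjusted threshold. With GC and length trends taken out, Psmb8, Psmb9 and Psmb10 had log2 fold changes of -0.27, -0.19 and -0.18.

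Set against Psmb5, Psmb6 and Psmb7, the inducible genes made up 4.46, 4.61, 4.80 and 4.77% of the constitutive level in the KO libraries and 5.29, 5.67, 5.43 and 5.46% in the WT libraries. The size of this share depends on the deposited gene lengths, such as 2884 bases for Psmb9 and 966 for Psmb6. All KO libraries lay below all WT libraries in this share, which averaged 4.66 ± 0.161% in KO and 5.46 ± 0.159% in WT (SD, n = 4 each). The share was computed after the values had been seen and is given with no test. Psmb10 made up most of the inducible sum, averaging 11.1 of 16.6 in KO and 13.3 of 20.1 in WT. With GC and length trends taken out, the share ran from 4.61 to 4.99 in the KO libraries and 5.06 to 5.55 in the WT libraries. Pair by pair, Psmb8 over Psmb5 was 1.95 to 2.80 in the KO libraries and 2.54 to 3.04 in the WT libraries (percent), Psmb9 over Psmb6 was 1.69 to 2.34 in the KO libraries and 2.22 to 2.46 in the WT libraries, and Psmb10 over Psmb7 was 9.42 to 12.1 in the KO libraries and 12.2 to 13.3 in the WT libraries. The groups overlapped in the first and second pair and not in the third. Summed leukocyte markers (8 genes, all past the filter) were 208 to 284 in KO and 235 to 264 in WT. Of these, 6 were above 0 in log2 fold change and 2 below. The planned list of leukocyte markers was longer than these 8. The median log2 fold change of the 8 was 0.093. Cd74, the class II invariant chain, was the only 1 of the 8 at an unadjusted limma p under 0.05, at 161 ± 17.6 in KO and 189.5 ± 11.8 in WT (SD, n = 4 each; log2 fold change -0.24, standard error 0.080, limma adjusted p = 0.234). Cd74 made up most of the leukocyte sum, which therefore says little of the other markers. The 10 interferon response genes summed to 53.1 to 66.6 in KO and 49.7 to 63.5 in WT, with 3 log2 fold changes above 0, 7 below and a median of -0.063. Their part in the share was not tested.

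**Figure D4:**
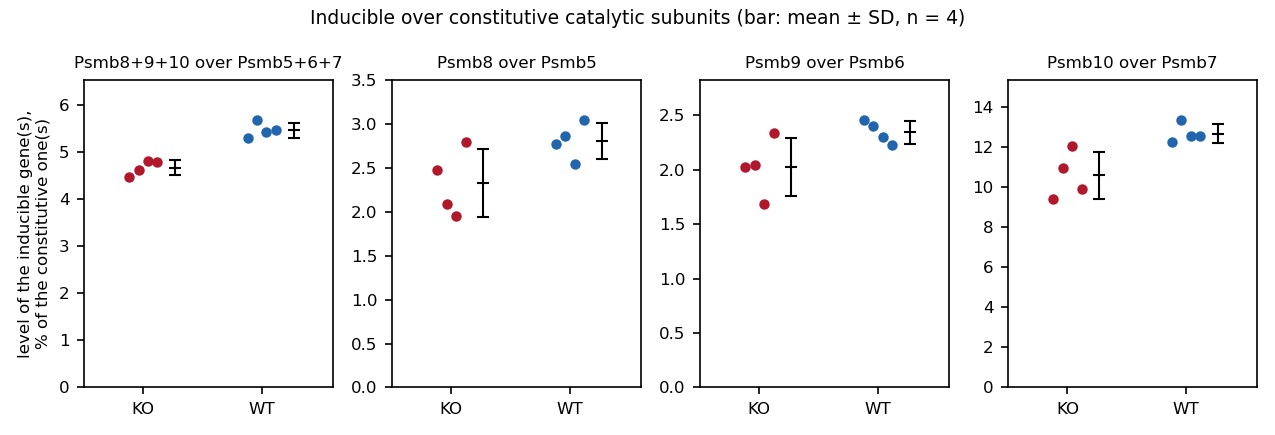
Level of inducible catalytic subunit genes as a percent of the constitutive ones (vertical axes, from 0) in each library, summed (left) and pair by pair; each point is a library, with mean ± SD (n = 4) drawn at its side. The summed share is 4.46 to 4.80% in KO and 5.29 to 5.67% in WT.

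No gene of the further pathway lists passed the test either. For the counts below, 7.18% of all tested genes were higher and 8.26% lower at an unadjusted limma p under 0.05. Further subunits and partners of the proteasome comprised 13 genes, 0 past the test, 1 higher and 1 lower at an unadjusted limma p under 0.05, median log2 fold change 0.047. Shfm1, a small subunit of the lid that the symbol rule leaves out, measured 40.4, 35.9, 37.6 and 39.5 scaled FPKM in the KO kidneys, against 44.2, 46.7, 41.5 and 43.0 in the WT kidneys. The groups did not overlap (log2 fold change -0.19, standard error 0.056, limma adjusted p = 0.191), and with GC and length trends taken out its value was -0.26. Ublcp1, a phosphatase of the nuclear proteasome, averaged 20.2 ± 1.65 in KO and 17.7 ± 1.13 in WT (SD, n = 4 each; log2 fold change 0.18, standard error 0.071, limma adjusted p = 0.280), and its value was 0.12 with the trends taken out. Ubiquitin genes and the factors that carry tagged proteins to the cap comprised 14 genes, 0 past the test, 2 higher and 2 lower at an unadjusted limma p under 0.05, median log2 fold change 0.025. The shuttle factor Rad23b measured 36.7, 36.4, 36.3 and 37.0 scaled FPKM in the KO kidneys, against 33.1, 33.8, 33.4 and 34.1 in the WT kidneys. Its groups were apart by more than their spread, at 36.6 ± 0.307 in KO and 33.6 ± 0.433 in WT (log2 fold change 0.12, standard error 0.040, limma adjusted p = 0.224), and its value was 0.078 with the trends taken out.

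Regulators of proteasome genes comprised 8 genes, 0 past the test, 0 higher and 0 lower at an unadjusted limma p under 0.05, median log2 fold change 0.052. Nfe2l1, the factor that raises subunit genes when proteasome capacity is short, measured 54.5, 60.3, 62.6 and 55.4 scaled FPKM in the KO kidneys, against 50.5, 58.2, 51.3 and 53.8 in the WT kidneys. The groups overlapped, with KO replicates 2 and 3 on top (log2 fold change 0.12, standard error 0.064, limma adjusted p = 0.385). Ngly1, the enzyme that strips glycans from Nfe2l1, and Stat3 had the smallest p of the list, with log2 fold changes of 0.14 and -0.10 (limma adjusted p of 0.369 and 0.376).

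Fold changes of the members moved with the GC content of their transcripts. Across the 45 tested members, which share the same 8 libraries, Spearman's rho of GC content and log2 fold change was -0.52, beside -0.44 across 13947 tested genes with a GC value. The 15 members of lowest GC content (37.0% to 47.1%) had a median of 0.070 and the 15 of highest (51.5% to 57.4%) a median of -0.066. Within a library, rho of GC content and the deviation from a gene's mean over all tested genes was -0.39, -0.069, -0.12 and -0.36 in KO and 0.46, 0.39, -0.24 and 0.29 in WT, so WT replicate 3 lay among the KO libraries. With GC and length trends removed from each library, rho across the members was -0.011, and Psmg4, Psmc3ip and Psmd9 stood at -0.39, -0.37 and -0.21 (limma adjusted p of 0.239, 0.324 and 0.233). Over all alternatives the limma adjusted p was 0.0937 to 0.346 for Psmg4 and 0.0835 to 0.397 for Psmc3ip.

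**Figure D5:**
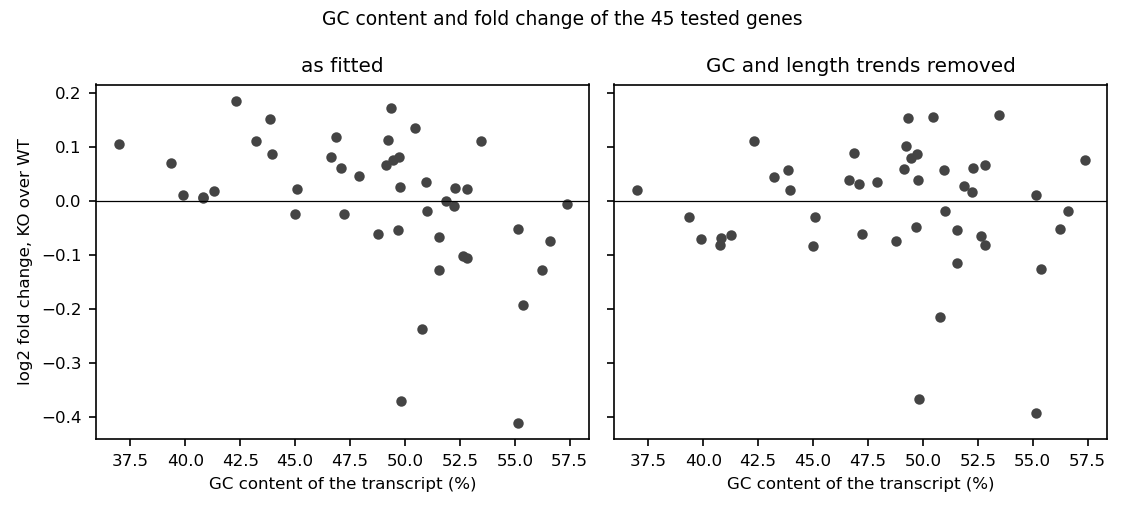
GC content of the longest annotated transcript (horizontal axes, percent) against the fitted KO over WT log2 fold change (vertical axes) of the 45 tested genes, as fitted (left) and with GC and length trends removed from each library (right); points are genes. The downward slope on the left, with Spearman's rho of -0.52, is at -0.011 on the right.

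Position beside the targeted locus and overlapping genes were checked. On chromosome 11, which carries C1qtnf1 (118428203 to 118449963, mm10), lie 10 members, the nearest being Psmd12 (107479484 to 107504362), 10.9 Mb away, and the farthest Psme4, 87.5 Mb away. Their median log2 fold change was 0.0055, with 6 above 0 and 4 below, and Psmd12 and Psmc5, the closest, had 0.047 and 0.00069. At an unadjusted limma p under 0.05, 0 of the 10 were higher and 2 lower, against 7.18% and 8.26% of all tested genes. The 2 lower ones were Psmc3ip (-0.37), 17.3 Mb away, and Psmd3 (-0.19), 19.7 Mb away. The part of position in these values was not tested. The spans of 15 members overlap another gene in the table, and since the sources used here do not say whether reads were counted by strand, reads in shared stretches make those values less certain. They are Psma3, Psma4, Psma5, Psma6, Psmb7, Psmc3, Psmc3ip, Psmd1, Psmd12, Psmd13, Psmd3, Psmd5, Psmd9, Psme1 and Psme2b. Sirt3, on the strand opposite Psmd13, was at 63.2 scaled FPKM in KO and 69.5 in WT, above Psmd13 itself. Mlx, opposite Psmc3ip, was at 15.8 in KO and 14.1 in WT, also above its partner, with a log2 fold change of the other sign (0.16). Cutal, opposite Psmd5, was at 20.9 in KO and 19.5 in WT, again above the member. The other overlapping genes were below their members, among them Gm26745, opposite Psmd9, at 0.276 in KO and 0.309 in WT.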

How the data were processed

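The authors' deposited table gave FPKM for each gene and library, per the file headers, with gene symbol, length and position on mm10. STAR 2.5, HTSeq 0.6.1, CASAVA and DESeq2 appear, with no role attached, in the submitters' processing notes. No source used here names the annotation release. FPKM times gene length came out as whole multiples of 1 read for 100% of values (tolerance 0.01). Each library was divided by a median-ratio factor (0.978 to 1.03). Genes with a mean of at least 0.5 were kept, 14022 in all, and log2 of scaled FPKM plus 0.5 served as input to limma's trended empirical Bayes model (version 3.58.1, R 4.3.3), genotype being the only term. Tests were two-sided, with Benjamini-Hochberg adjustment over all tested genes. The fit was also run on simulated reads with known fold changes and no GC trend. That run does not show how small a change would be found in these libraries. Alternatives changed the pseudocount, filter, scaling, limma settings and GC correction, or left out each library in turn.

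Members and gene lists were chosen with earlier results of these data known. Named in full are, per role, the 2 members of smallest p (all of roles with 3 or fewer), the catalytic subunits, the highest and lowest 20S and 19S subunits and the untested member, and from each further list the 2 genes of smallest p, Nfe2l1 and the 3 inducible subunits. Other names were chosen after their values were seen. One gene that this rule picks is not reported here. Roles are textbook knowledge. GC content came from GENCODE vM21 transcripts, found for 99.5% of tested genes. Trends with GC content and length were removed with natural splines of 4 degrees of freedom.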

Additional observations from a re-analysis of the deposited data

Results flagged for a closer look

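A library far from the others of its genotype, by Dixon's test at 95%, was found in 3 of the 92 groups of 4 libraries checked (46 members, 2 genotypes), where chance gives about 1 in 20. Psmc2 stood at 33.2 scaled FPKM in WT replicate 4, against 30.7 to 30.8 in the other 3 WT libraries. Psmd11 stood at 25.2 scaled FPKM in KO replicate 4, against 27.6 to 28.0 in the other 3 KO libraries. Psme2b stood at 2.63 scaled FPKM in WT replicate 1, against 3.48 to 3.58 in the other 3 WT libraries.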

How the results depend on the processing

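In none of the 19 alternatives did a tested member pass (0 called under each), and the lowest limma adjusted p was 0.0700, for Psmd9 without WT replicate 3. The median of the members was 0.044 with quantile normalization and -0.0045 to 0.036 when each library was left out, below 0 only without KO replicate 1. The number of members at an unadjusted p under 0.05 ranged from 3 to 10 over the libraries left out (6.67% to 22.2%), where the share over all tested genes was 10.7% to 21.8%. Of 418 values of the 22 tested members that are named in full, 399 kept their sign and 19 turned, within 6 genes. The other tested members are not in this tally, and signs turned among them too. Psmc3 was at 0.012 and Psma7 at 0.076 with GC and length trends removed. Leaving out each library gave -0.055 to 0.0070 for Psma4, -0.085 to 0.028 for Psmg2 and -0.014 to 0.11 for Psmd12. With GC and length trends removed, Psma2 was at -0.031, Psma3 at -0.069, Psmb4 at 0.017, Psmb7 at -0.082, Psmd11 at -0.071 and Psmd5 at -0.030, and Psmb4 was at 0.025 with quantile normalization. Leaving out each library gave -0.012 to 0.020 for Psma3, -0.037 to 0.0094 for Psmb4, -0.029 to 0.022 for Psmb7, -0.012 to 0.044 for Psmd11 and -0.0065 to 0.060 for Psmd5. The cause was not tested. The KO minus WT difference in the inducible share, -0.800 percentage points, was -0.571 with those trends removed, an alternative chosen after seeing the data. No paired analysis was possible because animals of the genotypes share no number in the labels. Psmg3, Psmc3ip, Psme2b and Psma8 rest on under 70 reads per library, which limits their precision, and 4 animals per genotype limit the rest.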
